A study of Mus musculus with 9 samples.

Results

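The chemokine ligands and receptors measured here were 50 genes of the 18193 with a usable probe set, 33 ligands and 17 receptors. They were chosen by name alone. Every gene was taken whose platform symbol began with Ccl, Cxcl, Cx3cl, Xcl, Ccr, Cxcr, Cx3cr or Xcr followed by a digit, and each gene was read through its brightest probe set over all arrays.

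RNA was measured on 9 mouse expression arrays of podocytes, the epithelial cells that wrap the capillaries of the kidney filter. In 5 arrays the cells came from OVE26 mice, which are labelled diabetic with the genotype OVE-GFP. In 4 arrays they came from FVB mice, which are labelled normal and wild type. Both groups were on the FVB strain and 3 to 4 months old, and each array is labelled as 1 numbered mouse. OVE26 mice are a transgenic model that becomes diabetic because of a transgene in the insulin-producing beta cells of the pancreas. The mice had been crossed to FVB mice with green fluorescent podocytes, and glomeruli were trypsinised and sorted by fluorescence. The sources used here do not name the promoter that drives the fluorescent protein, and the labels do not say whether the FVB mice carried it. P-values measure the spread between these arrays.

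Chemokines are small secreted proteins that direct the movement of leukocytes through G protein-coupled receptors. They are classed by the spacing of their first cysteines into CXC, CC, CX3C and XC ligands. Several CXC ligands such as CXCL1 and CXCL2 attract neutrophils through CXCR2, CXCL9, CXCL10 and CXCL11 are induced by interferons and bind CXCR3, and CCL2 attracts monocytes through CCR2. In the glomerulus, podocytes are a known source of CXCL12, and CXCL16 and CX3CL1 are made as membrane proteins from which a soluble chemokine can be shed.

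The promoters of Cxcl1, Cxcl2 and Cxcl10 are shown because these genes had the largest differences between the groups. Each run is the 250 bases before the RefSeq gene start in GRCm38.p6, and capitals mark matches to an NF-kB consensus or, in Cxcl10, also to an interferon-stimulated element. Cxcl1 lies on the plus strand at chr5:90890995-90891244, Cxcl2 on the plus strand at chr5:90903649-90903898, and Cxcl10 on the minus strand at chr5:92348890-92349139.
Cxcl1: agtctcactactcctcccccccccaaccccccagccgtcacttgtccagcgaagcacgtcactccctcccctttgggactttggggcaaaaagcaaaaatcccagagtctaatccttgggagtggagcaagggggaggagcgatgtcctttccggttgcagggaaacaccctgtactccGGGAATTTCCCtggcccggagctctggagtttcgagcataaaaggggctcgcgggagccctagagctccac
Cxcl2: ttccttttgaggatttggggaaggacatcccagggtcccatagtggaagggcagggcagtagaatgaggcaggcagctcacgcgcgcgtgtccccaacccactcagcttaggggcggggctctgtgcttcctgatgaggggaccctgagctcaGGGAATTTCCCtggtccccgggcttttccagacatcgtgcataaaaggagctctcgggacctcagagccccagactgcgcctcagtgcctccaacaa
Cxcl10: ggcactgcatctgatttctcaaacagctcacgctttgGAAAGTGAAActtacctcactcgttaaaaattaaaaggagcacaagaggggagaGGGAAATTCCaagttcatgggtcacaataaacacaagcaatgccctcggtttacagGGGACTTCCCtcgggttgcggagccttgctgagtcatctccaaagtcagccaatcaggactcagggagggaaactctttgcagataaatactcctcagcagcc

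Cxcl1 and Cxcl2 held the same run, GGGAATTTCCC, which is a pair of overlapping matches to the NF-kB consensus, one on each strand. It began 71 bases before the start in Cxcl1 and 97 bases before it in Cxcl2. In Cxcl10 the interferon-stimulated element GAAAGTGAAA began 213 bases before the start, and the NF-kB matches GGGAAATTCC and GGGACTTCCC began at 159 and 103 bases. Searched on both strands of the 32851 promoters of the table, the NF-kB consensus was found in 3.9%, its form in Cxcl1, GGGAATTTCC, in 0.0852%, and the interferon-stimulated element, written as 2 copies of GAAA with 2 bases between them, in 2.98%. Of the 37 chemokine genes with a promoter in the table, 8 held the consensus (Ccl20, Ccl9, Ccr3, Ccr6, Cxcl1, Cxcl10, Cxcl2 and Cxcl3), 4 held the form in Cxcl1 (Ccr3, Cxcl1, Cxcl2 and Cxcl3), and 2 held the interferon-stimulated element (Cxcl10 and Cxcl14). The form in Cxcl1 was read from that promoter, so its match there was fixed in advance. The percentages count promoters, whereas the chemokine counts are of genes with a match in any of their promoters. A match is a run of letters in this window and not evidence of binding.

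Podocyte markers were bright in the sorts of both groups. All 21 measured podocyte markers of 25 listed lay above the 40th percentile of genes, and their summed intensity was 53927 to 67283 in OVE26 and 64615 to 72702 in FVB. The mean centred level of these markers differed by -0.31 (exact permutation p = 0.0317, adjusted over 10 lists p = 0.0635). Of 9 lists of markers of other cells, 4 differed between the groups after adjustment. The macrophage score was higher in OVE26 by 0.69 (exact permutation p = 0.0159, adjusted p = 0.0397), with summed intensities of 2733 to 4791 in OVE26 and 1393 to 1905 in FVB over 27 genes. Parietal epithelial markers were higher by 0.92, and those of distal nephron segments (loop, distal tubule and collecting duct) by 1.21 (exact permutation p = 0.00794 and adjusted p = 0.0265 for each). Of 13 parietal genes 3 were called higher, all keratins, against 0.473% of all genes. They were Krt18 (difference 2.76, limma adjusted p = 0.0283), Krt8 (2.32, limma adjusted p = 0.00978) and Krt19 (1.30, limma adjusted p = 0.0367). Cldn1 differed by 0.04, Cldn2 by 0.03 and Ncam1 by -0.49. Endothelial, mesangial, proximal tubule, T and NK cell and B cell scores differed by -0.06 to 0.04, with exact permutation p of 0.317 to 0.984. The proximal tubule score was uneven within OVE26. It was -1.80 on OVE26 2 and 0.33, 0.47, 0.23 and 0.69 on OVE26 1, 3, 4 and 5, against -0.19 to 0.34 on the FVB arrays. Other kidney cells were also represented. Above the 40th percentile were 17 of 18 proximal tubule, 17 of 18 endothelial, 13 of 14 mesangial and 20 of 27 distal nephron markers. The distal nephron sums were 11406 to 20878 in OVE26 and 6073 to 15271 in FVB. Those of proximal tubule were 2492 to 12550 in OVE26 and 8151 to 15938 in FVB. Of the 27 macrophage genes, 23 were higher in OVE26, beside 52.6% of all genes. The 1 called was Lgals3 (difference 1.95, limma adjusted p = 0.00618). It read 10.16, 10.78, 10.61, 10.94 and 10.55 on OVE26 arrays 1 to 5, of which OVE26 2 had the lowest macrophage score, -0.23. Of the 27 genes, 6 were in the dim part of the arrays, Itgam and Cd163 among them. Ctss differed by 2.61 (limma adjusted p = 0.0711) and C1qb by 2.30 (limma adjusted p = 0.0828). Lyz2 differed by 1.42 (limma adjusted p = 0.129) and Csf1r by 0.03 (limma adjusted p = 0.985). The largest difference the other way was in Mrc1, at -1.35 (limma adjusted p = 0.191). Mrc1 averaged 6.75 ± 0.89 in OVE26 and 8.10 ± 0.59 in FVB (SD, n = 5 and 4). Array numbers OVE26 2, OVE26 3, OVE26 5 and FVB 2 had high Xist and the other 5 did not, so both sexes were present in both groups.

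In these sorts the chemokine family was represented mainly by ligands. Levels are log2 intensities, and since probe sets differ in brightness a level is described only by its place among all genes. On the mean of the 9 arrays, 12 of the 50 genes lay above the 40th percentile, 11 of 33 ligands and 1 of 17 receptors. Another 11 genes lay between the 25th and 40th percentiles, and 27 were at or below the 25th, the dim part of the arrays, where signal was not separated from background here. These 27 included 14 of the 17 receptors. Among the 27 dim genes, 21 (77.8%) had exactly the same value on 2 or more arrays, against 9 of the 23 brighter ones (39.1%). Over all genes the shares were 73% of those at or below the 25th percentile and 30.9% of those above it.

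**Figure D1:**
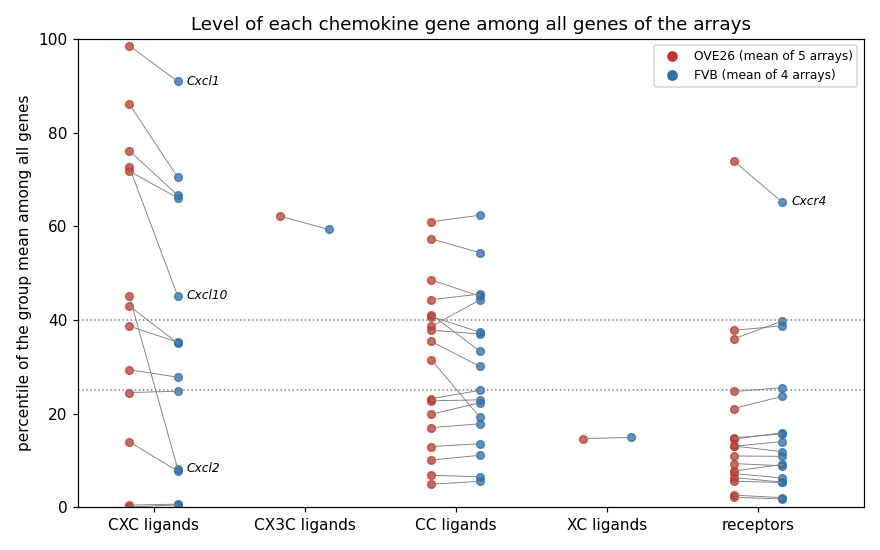
Percentile of each chemokine gene's group mean among all 18193 genes, by class of ligand or receptor, with the mean of 5 OVE26 arrays at the left and of 4 FVB arrays at the right of each grey line. Dotted lines mark the 25th and 40th percentiles, and Cxcr4 is the 1 receptor above the 40th.

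The 12 genes above the 40th percentile were Cxcl1, Cxcl10, Cxcl12, Cxcl13, Cxcl16, Cx3cl1, Ccl17, Ccl25, Ccl27a, Ccl28, Ccl4 and Cxcr4. Cxcl1, at 11.40 ± 0.72 in OVE26 and 9.63 ± 0.43 in FVB (SD, n = 5 and 4), lay at percentile 98.5 of all genes in OVE26 and 90.9 in FVB. CCL17 and CCL25 attract T cells, CCL27 and CCL28 are epithelial chemokines that bind CCR10, and CCL4 attracts monocytes and T cells. CXCR4 is the receptor of CXCL12.

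No chemokine gene passed the adjusted threshold of 0.05 in either direction. Across all genes, 0.473% were called higher in OVE26 and 0.132% lower by limma with Benjamini-Hochberg adjustment. At an unadjusted limma p under 0.05, 9 of the 50 (18%) were higher and 0 lower, against 9.03% and 6.07% of all genes. The groups did not overlap for 5 chemokine genes, all higher in OVE26 (10%, against 3.64% of all genes), and for 0 that were lower (against 2.62%). At an adjusted limma p under 0.1 the count was 3, namely Cxcl1, Cxcl16 and Cxcl10, against 1.47% of all genes. In a sorted bulk sample, a change in the number of cells of a type and a change in the RNA of each cell cannot be told apart.

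The CXC ligands stood highest in the family. The median difference, OVE26 minus FVB, was 0.64 over the 13 CXC ligands, 0.01 over the 18 CC ligands and 0.05 over the 17 receptors. It was 0.07 over all 50 and 0.01 over all genes. The CXC median was the value of Cxcl11, a dim gene. The classes also differed in level, with 4 of 13 CXC ligands, 8 of 18 CC ligands and 14 of 17 receptors in the dim part. The median was -0.01 over the 27 dim chemokine genes and 0.40 over the 23 brighter ones. Differences were above 0 in 11 of 13 CXC ligands, 9 of 18 CC ligands and 10 of 17 receptors, beside 52.6% of all genes. Of the 9 genes with an unadjusted limma p under 0.05, 6 were CXC ligands, 2 CC ligands and 1 a receptor.

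**Figure D2:**
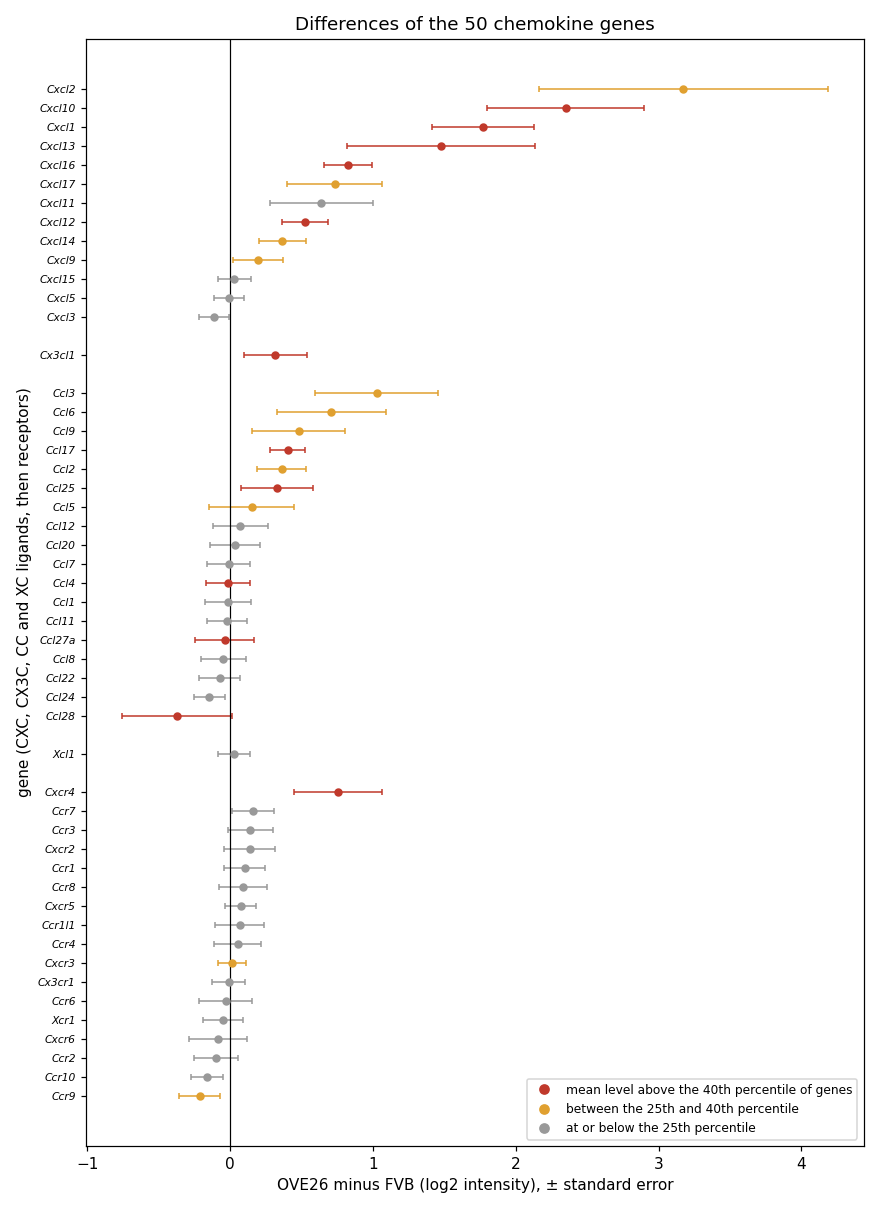
Difference in log2 intensity (OVE26 minus FVB, bars are the standard error from limma) for the 50 chemokine genes, grouped as CXC, CX3C, CC and XC ligands and receptors, coloured by mean level. The highest points are the CXC ligands Cxcl2 at 3.17, Cxcl10 at 2.35 and Cxcl1 at 1.77 (1.82, 1.98 and 1.75 on the scale of log2 of the value plus 16, where their order turns), and the receptors lie between -0.21 and 0.75.

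Among the neutrophil-attracting ligands, Cxcl1 and Cxcl2 had large differences and their close relatives Cxcl3 and Cxcl5 did not. Cxcl1 read 10.84, 10.65, 11.95, 12.34 and 11.23 on OVE26 arrays 1 to 5, against 10.01, 9.61, 9.87 and 9.03 on FVB arrays 1 to 4. Every OVE26 array lay above every FVB array, with OVE26 4 and OVE26 3 the highest. The difference was 1.77 (SE 0.35), a 3.41-fold higher intensity, with a limma adjusted p of 0.0573. Each of the 3 Cxcl1 probe sets separated the groups, with differences of 1.77, 1.80 and 2.22. The set with a difference of 1.80 passed when all probe sets were tested singly (limma adjusted p = 0.0491), where 0.44% of genes had a probe set called higher. The brightest set, read here, carries a suffix marking probes that may cross-hybridise. The set that passed carries a suffix marking probes shared by more than 1 transcript. The set with the 2.22 difference carries neither suffix and did not pass (limma adjusted p = 0.0769 with all probe sets tested singly).

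Cxcl2 was split between the OVE26 mice. It read 5.64, 1.62, 6.85, 7.53 and 5.84 on OVE26 arrays 1 to 5, against 1.63, 3.15, 1.91 and 2.60 on FVB arrays 1 to 4. On 4 OVE26 arrays it was above every FVB array, while OVE26 2 was at the level of the lowest FVB array. All FVB values and the OVE26 2 value were below 3.85, the 25th percentile of genes. The difference over all arrays was 3.17 (SE 1.01, limma adjusted p = 0.179), and without OVE26 2 it was 4.14 (SE 0.47, limma adjusted p = 0.0155). Since the FVB values lie in the dim part of the arrays, the size of the difference is uncertain: on the scale of log2 of the value plus 16 it was 1.82 (SE 0.59, limma adjusted p = 0.184). Cxcl3 averaged 1.26 ± 0.09 in OVE26 and 1.38 ± 0.16 in FVB, and Cxcl5 averaged 1.41 ± 0.17 in OVE26 and 1.42 ± 0.02 in FVB (SD, n = 5 and 4), both far below the 25th percentile. Cxcr2, the receptor of this group, averaged 2.26 ± 0.37 in OVE26 and 2.12 ± 0.07 in FVB and was also dim.

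Neutrophil markers stood beside these ligands as follows. The score over 11 neutrophil genes was higher in OVE26 by 0.45 (exact permutation p = 0.00794, adjusted p = 0.0265), with summed intensities of 227 to 758 in OVE26 and 139 to 150 in FVB. The 1 gene of the list called was Lcn2, higher by 4.45 (SE 0.45, limma adjusted p = 0.00978), which injured tubular epithelium also makes. Without Lcn2 the sums of the other 10 genes were 121 to 237 in OVE26 and 128 to 142 in FVB, and the score differed by 0.05. S100a9, a calcium-binding protein abundant in neutrophils, differed by 0.56 (limma adjusted p = 0.663) and was highest on OVE26 3 and OVE26 4, at 7.01 and 6.55. S100a8, its partner, differed by 0.62 (limma adjusted p = 0.422) and read 4.73 and 4.79 on the same arrays, also its highest values. Of the 11 genes 6 were in the dim part of the arrays, the granulocyte enzymes Mpo and Elane among them. The part of neutrophils in the differences was not tested.

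The interferon-inducible ligand Cxcl10 was the other large difference. It read 7.07, 7.29, 9.33, 8.47 and 6.62 on OVE26 arrays 1 to 5, against 4.34, 5.94, 5.60 and 5.74 on FVB arrays 1 to 4. The groups did not overlap, and OVE26 3 and OVE26 4 were again the highest. The difference was 2.35 (SE 0.55), or 5.10-fold, with a limma adjusted p of 0.0905. Cxcl11, which shares its receptor, was dim and differed by 0.64 (SE 0.36, limma adjusted p = 0.452), with its highest value, 4.29, on OVE26 3. Cxcl9 differed by 0.20 (SE 0.18, limma adjusted p = 0.675), also with its highest value, 4.80, on OVE26 3. A second, dimmer-on-average Cxcl9 probe set read 7.51 on OVE26 3 and between 2.43 and 2.80 on the other 8 arrays. Cxcr3, the receptor of these 3 ligands, averaged 4.89 ± 0.11 in OVE26 and 4.87 ± 0.08 in FVB (SD, n = 5 and 4). Of 24 other interferon-response genes, 0 were called and 22 were higher in OVE26, beside 52.6% of all genes, with a median of 0.59. On this list too OVE26 3 had the highest score, 1.67, while the other 4 OVE26 arrays ranged from -0.38 to 0.27 and the FVB arrays from -0.52 to -0.34.

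**Figure D3:**
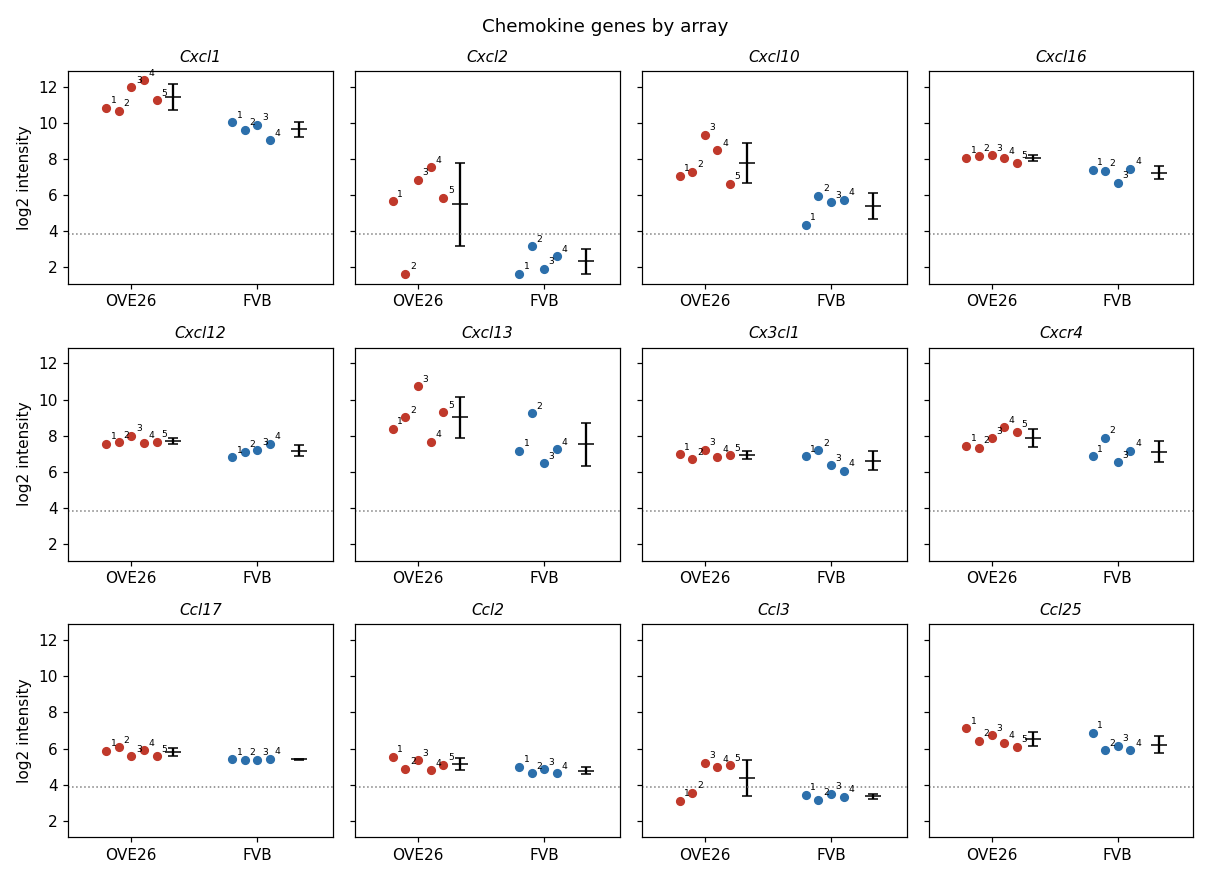
Log2 intensity of 12 chemokine genes on each array (points numbered by mouse, OVE26 left and FVB right, bars are mean ± SD of 5 and 4 arrays). The dotted line is the 25th percentile of all genes, and Cxcl1, Cxcl10, Cxcl16, Cxcl12 and Ccl17 show no overlap between the groups.

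The membrane-bound ligand Cxcl16 differed with little spread among the OVE26 arrays. It read 8.04, 8.18, 8.19, 8.03 and 7.77 on OVE26 arrays 1 to 5, against 7.38, 7.35, 6.68 and 7.46 on FVB arrays 1 to 4. The groups did not overlap. The difference was 0.83 (SE 0.17), or 1.77-fold, with a limma adjusted p of 0.0659, and a second probe set also separated the groups with a difference of 1.58. Cxcr6, the receptor of CXCL16, was dim, at 2.96 ± 0.43 in OVE26 and 3.05 ± 0.13 in FVB (SD, n = 5 and 4).

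Cx3cl1, the other membrane-bound ligand, averaged 6.93 ± 0.20 in OVE26 and 6.61 ± 0.51 in FVB (SD, n = 5 and 4). Its difference of 0.32 (SE 0.22) did not pass (limma adjusted p = 0.557), and the groups overlapped, with FVB 2 at 7.20 and FVB 1 at 6.85 inside the OVE26 range of 6.69 to 7.23. Its 4 probe sets gave differences of 0.32, 0.67, 0.45 and -0.09, the last 2 from dim sets. Cx3cr1, its receptor on monocytes and macrophages, stood at 3.84 ± 0.17 in OVE26 and 3.85 ± 0.10 in FVB, a difference of -0.01 (limma adjusted p = 0.981).

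Cxcl12, the podocyte ligand of CXCR4, read 7.56, 7.63, 8.01, 7.59 and 7.66 on OVE26 arrays 1 to 5, against 6.79, 7.10, 7.23 and 7.54 on FVB arrays 1 to 4. FVB 4 lay just below the lowest OVE26 array, so the groups did not overlap, and the difference of 0.52 (SE 0.16) did not pass (limma adjusted p = 0.158). Its other probe sets gave 0.26 and, from a dim set, -0.04, and neither separated the groups. Cxcr4 read 7.45, 7.34, 7.85, 8.47 and 8.20 on OVE26 arrays, against 6.86, 7.88, 6.52 and 7.16 on FVB arrays. FVB 2 lay within the OVE26 range, and the difference was 0.75 (SE 0.31, limma adjusted p = 0.284).

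Cxcl12 with Cxcr4 and Cxcl12 with Ackr3 were the 2 ligand and receptor pairs, of 28 listed, in which both genes lay above the 40th percentile. In 8 pairs the ligand alone did, and in 18 neither did. Ackr3, an atypical receptor that takes up CXCL12 without G protein signalling, was among the brightest genes, at 11.93 ± 0.11 in OVE26 and 12.17 ± 0.14 in FVB (difference -0.25, SE 0.11, limma adjusted p = 0.313). Ackr4, an atypical scavenger of CCL19, CCL21 and CCL25, averaged 12.22 ± 0.07 in OVE26 and 11.71 ± 0.13 in FVB, with no overlap (difference 0.51, SE 0.10, limma adjusted p = 0.0526). Ccl25 averaged 6.54 ± 0.39 in OVE26 and 6.21 ± 0.46 in FVB (difference 0.33, SE 0.25, limma adjusted p = 0.603).

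Cxcl13, which attracts B cells through CXCR5, varied widely within both groups. It read 8.37, 9.01, 10.73, 7.66 and 9.29 on OVE26 arrays 1 to 5, against 7.16, 9.24, 6.48 and 7.25 on FVB arrays 1 to 4. OVE26 3 was the highest, and FVB 2 lay above 3 of the 5 OVE26 arrays. The difference was 1.48 (SE 0.66, limma adjusted p = 0.330), ranging from 1.05 without OVE26 3 to 2.05 without FVB 2. The 4 arrays with high Xist read 9.01, 10.73, 9.29 and 9.24, and with sex as a covariate the difference was 0.78 (SE 0.36, limma adjusted p = 0.382). Of the CXC ligands not yet described, Cxcl15 differed by 0.03, Cxcl14 by 0.36 and Cxcl17, a mucosal chemokine that was highest on OVE26 4, by 0.73.

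Among the CC ligands differences ranged from -0.37 to 1.03, the upper end being Ccl3. Ccl17 read 5.88, 6.07, 5.58, 5.91 and 5.58 on OVE26 arrays 1 to 5, against 5.40, 5.39, 5.38 and 5.43 on FVB arrays 1 to 4. The groups did not overlap, and the difference was 0.40 (SE 0.12, limma adjusted p = 0.158). Ccl2, the monocyte attractant, averaged 5.14 ± 0.32 in OVE26 and 4.78 ± 0.18 in FVB, a difference of 0.36 (SE 0.17, limma adjusted p = 0.356), and 3 OVE26 arrays lay above every FVB array. Ccl5, which attracts T cells and monocytes, averaged 4.89 ± 0.37 in OVE26 and 4.74 ± 0.65 in FVB (difference 0.15, SE 0.30, limma adjusted p = 0.877).

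Ccl3, a macrophage product that binds CCR1, read 3.09, 3.55, 5.20, 4.99 and 5.07 on OVE26 arrays 1 to 5, against 3.44, 3.15, 3.49 and 3.34 on FVB arrays 1 to 4. OVE26 3, 4 and 5 stood apart from all the other arrays, which were below the 25th percentile of genes. The difference was 1.03 (SE 0.43, limma adjusted p = 0.297). Ccl4, its close neighbour in the gene order, averaged 5.43 ± 0.19 in OVE26 and 5.45 ± 0.28 in FVB (difference -0.01, limma adjusted p = 0.983). Ccl28 averaged 4.96 ± 0.38 in OVE26 and 5.33 ± 0.93 in FVB (difference -0.37, limma adjusted p = 0.726), and its highest value, 6.65, was on FVB 4. Ccl27a differed by -0.04 (limma adjusted p = 0.962).

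The remaining 10 CC ligands differed by -0.15 to 0.71, with the smallest limma adjusted p at 0.424. The upper end was Ccl6, a myeloid chemokine known in mouse, which read 6.65 on OVE26 3 and between 4.18 and 4.99 on the other 8 arrays. A second, dim Ccl6 probe set differed by -0.32, with 3.01 on OVE26 3 and its highest value, 4.98, on FVB 1. Xcl1 differed by 0.03. A further 4 probe sets, each shared by several symbols, for Ccl27a and Ccl27b, the Ccl21 genes and Ccl19, gave differences of -0.02 to 0.17 and no separation.

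Most receptors were dim in both groups. Ccr2, the CCL2 receptor of inflammatory monocytes, averaged 2.31 ± 0.30 in OVE26 and 2.40 ± 0.07 in FVB (difference -0.10, SE 0.15, limma adjusted p = 0.829). Its other probe sets, also dim, gave differences of the other sign, 0.04, 0.13 and 0.21. The last of these separated the groups (limma adjusted p = 0.366 with all probe sets tested singly). Setting aside Cxcr4, Ccr2 and Cx3cr1, the other 14 receptors differed by -0.21 to 0.16. The 7 receptor genes that follow each other closely in the gene order, Ccr9, Cxcr6, Xcr1, Ccr1, Ccr1l1, Ccr3 and Ccr2, differed by -0.21 to 0.14 and none lay above the 40th percentile. In the run of Cxcl5, Cxcl3, Cxcl15, Cxcl1 and Cxcl2, which are close neighbours, differences ranged from -0.11 to 3.17 and 1 of 5, Cxcl1, separated the groups. In the run of Ccl2, Ccl7, Ccl11, Ccl12, Ccl8 and Ccl1 they ranged from -0.05 to 0.36.

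Genes that act with chemokines were read from lists. Since 0.473% of all genes were called higher and 0.132% lower, few calls could be looked for in lists this short, here and below. Of 15 atypical receptors and other chemokine-binding genes, 0 were called, although Mif, a cytokine that binds CXCR2 and CXCR4, differed by 1.13 (limma adjusted p = 0.0578) and Cd74, its receptor subunit, by 1.28 (limma adjusted p = 0.0516). Of 32 genes of G protein signalling 0 were called, with a median of -0.01. Of 17 proteases and shedding enzymes, 1 rose, Mmp2, a gelatinase that can cleave chemokines, by 1.18 (SE 0.17, limma adjusted p = 0.0244), with 9.40 ± 0.34 in OVE26 and 8.22 ± 0.12 in FVB (SD, n = 5 and 4). Dpp4, which trims chemokine ends, differed by -0.08 (limma adjusted p = 0.828).

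Of 24 genes of NF-kB signalling 0 were called, with a median of 0.40. Sele, an endothelial adhesion molecule, differed by 2.79 (limma adjusted p = 0.0837), Icam1 by 1.66 (limma adjusted p = 0.180) and Nfkbia, the NF-kB inhibitor, by 0.38 (limma adjusted p = 0.508). Of 27 cytokines that induce chemokines and their receptors 0 were called, with a median of 0.13. Stat3 differed by 0.75 (limma adjusted p = 0.0523), Tnf by 0.70 (limma adjusted p = 0.0814), Il6 by 2.82 (limma adjusted p = 0.215) and Il1b by 1.43 (limma adjusted p = 0.262). The median over all genes was 0.01.

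The arrays with high chemokines were not evenly spread. Among the 23 chemokine genes above the 25th percentile, OVE26 3 was the highest array for 9, against 11% of all genes at that level, and OVE26 4 for 4, against 15.2%. OVE26 2 was highest for 3, against 19.7%, and OVE26 5 for 0, against 7.51%. The macrophage score was 0.22, -0.23, 0.75, 0.38 and 0.43 on OVE26 arrays 1 to 5, against -0.41, -0.25, -0.54 and -0.34 on FVB arrays 1 to 4. OVE26 2, the array at which Cxcl2 was low, had a macrophage score close to that of FVB 2, the highest FVB array. OVE26 2 also had the lowest proximal tubule score of all arrays, -1.80, and the highest distal nephron score, 1.33. Which of these traits, if any, goes with its low Cxcl2 was not tested.

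**Figure D4:**
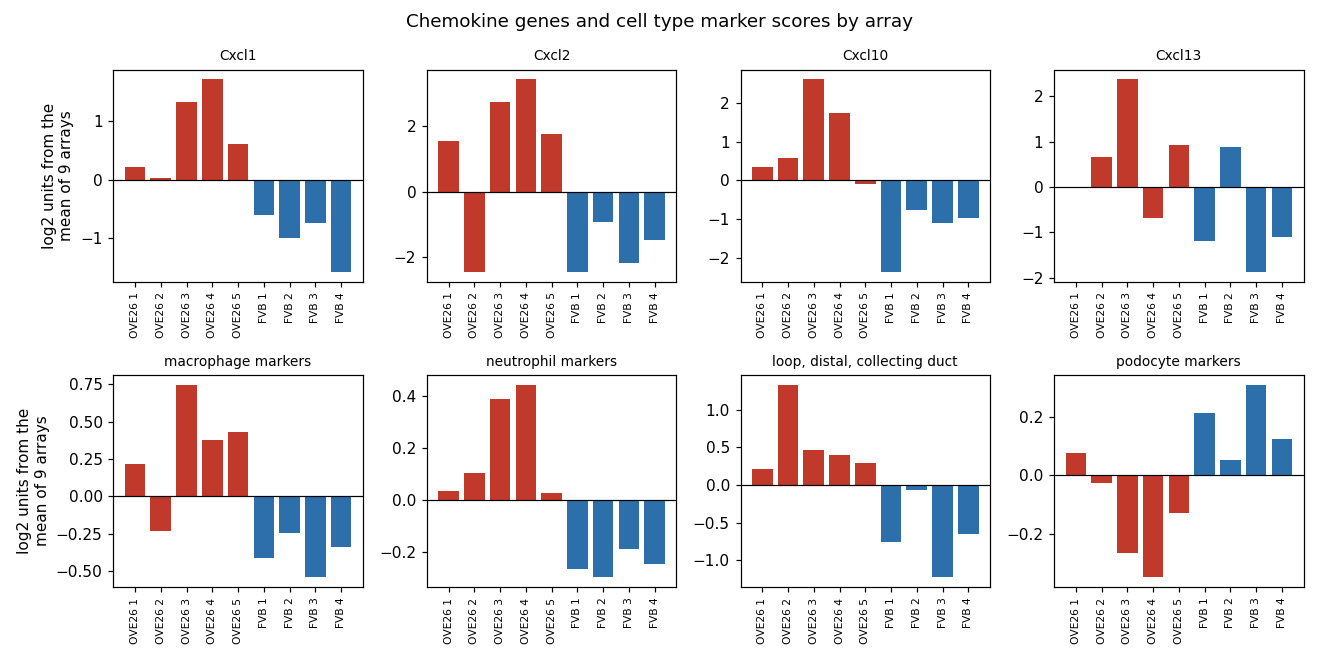
Log2 level of Cxcl1, Cxcl2, Cxcl10 and Cxcl13 and the scores of 4 cell type marker lists on each array, as distance from the mean of the 9 arrays (OVE26 arrays left in red, FVB arrays right in blue, each panel on its own scale). OVE26 3 and OVE26 4 are the highest arrays for Cxcl1, Cxcl2, Cxcl10 and the neutrophil score, and OVE26 3 for the macrophage score.

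With the macrophage score as a covariate in the limma fit, the differences were 0.96 for Cxcl1 (adjusted p = 0.451), 1.11 for Cxcl10 (adjusted p = 0.589), 0.74 for Cxcl16 (adjusted p = 0.307), -0.61 for Cxcl2 (adjusted p = 0.808) and -0.20 for Ccl3 (adjusted p = 0.914). They were 0.0098 for Cxcr4 (adjusted p = 0.995), 0.059 for Cxcl13 (adjusted p = 0.988) and 0.30 for Cxcl12 (adjusted p = 0.648). Other genes rose above their values without the score: Ccl17 to 0.73 (adjusted p = 0.159), Ccl27a to 0.51 (adjusted p = 0.460) and Ccl5 to 0.42 (adjusted p = 0.761). At an unadjusted limma p under 0.05 this fit had 8 of the 50 higher and 1 lower, and 9.59% of all genes higher. With the distal nephron score in place of the macrophage score the differences were 2.36 for Cxcl1 (adjusted p = 0.430), 2.15 for Cxcl10 (adjusted p = 0.603) and 0.40 for Cxcl16 (adjusted p = 0.706). For Cxcl2 the difference was 5.42 (adjusted p = 0.467) and for Ccl3 1.63 (adjusted p = 0.599). With the distal nephron score they were 0.46 for Cxcr4 (adjusted p = 0.837), -0.024 for Cxcl13 (adjusted p = 0.997) and 0.55 for Cxcl12 (adjusted p = 0.647). Both scores separated the groups themselves, so group and score cannot be told apart well in these fits, and the part of other cells in the differences was not tested further. A list of 20 immediate early genes, which respond to tissue handling as well as to signals and was added after the data were seen, had 0 called genes, a median of 0.55, and scores of -0.12, -0.16, 0.49, 0.94 and 0.23 on OVE26 arrays 1 to 5, against -0.25, -0.33, -0.16 and -0.63 on FVB arrays 1 to 4. OVE26 4 and OVE26 3, the highest arrays for Cxcl1 and Cxcl2, had the highest of these scores, and the part of handling in the differences was not tested.

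The call of Cxcl1 depended on the setting of the fit, and that of Cxcl2 on OVE26 2. Cxcl1 passed with a filter on dim genes (limma adjusted p = 0.0440, 1.17% of the genes tested called higher), with the mean of probe sets (limma adjusted p = 0.0450, 0.599% of genes called) and with an intensity trend and robust variance (limma adjusted p = 0.0439, 0.704% of genes called). It also passed with array weights (limma adjusted p = 0.0293, 1.56% of genes called) and without OVE26 2 (limma adjusted p = 0.0472, 0.588% of genes called). Cxcl16 passed with the mean of probe sets, at 1.20 (limma adjusted p = 0.0450). Cxcl2 passed with array weights, at 3.51 (limma adjusted p = 0.0411), without OVE26 2, and without OVE26 2 and OVE26 4 together, at 3.79 (limma adjusted p = 0.0257, 0.341% of genes called). Leaving out 1 array at a time gave differences of 1.54 to 1.96 for Cxcl1, 1.96 to 2.63 for Cxcl10, 0.65 to 0.91 for Cxcl16, 0.40 to 0.65 for Cxcl12 and 2.67 to 4.14 for Cxcl2.

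**Figure D5:**
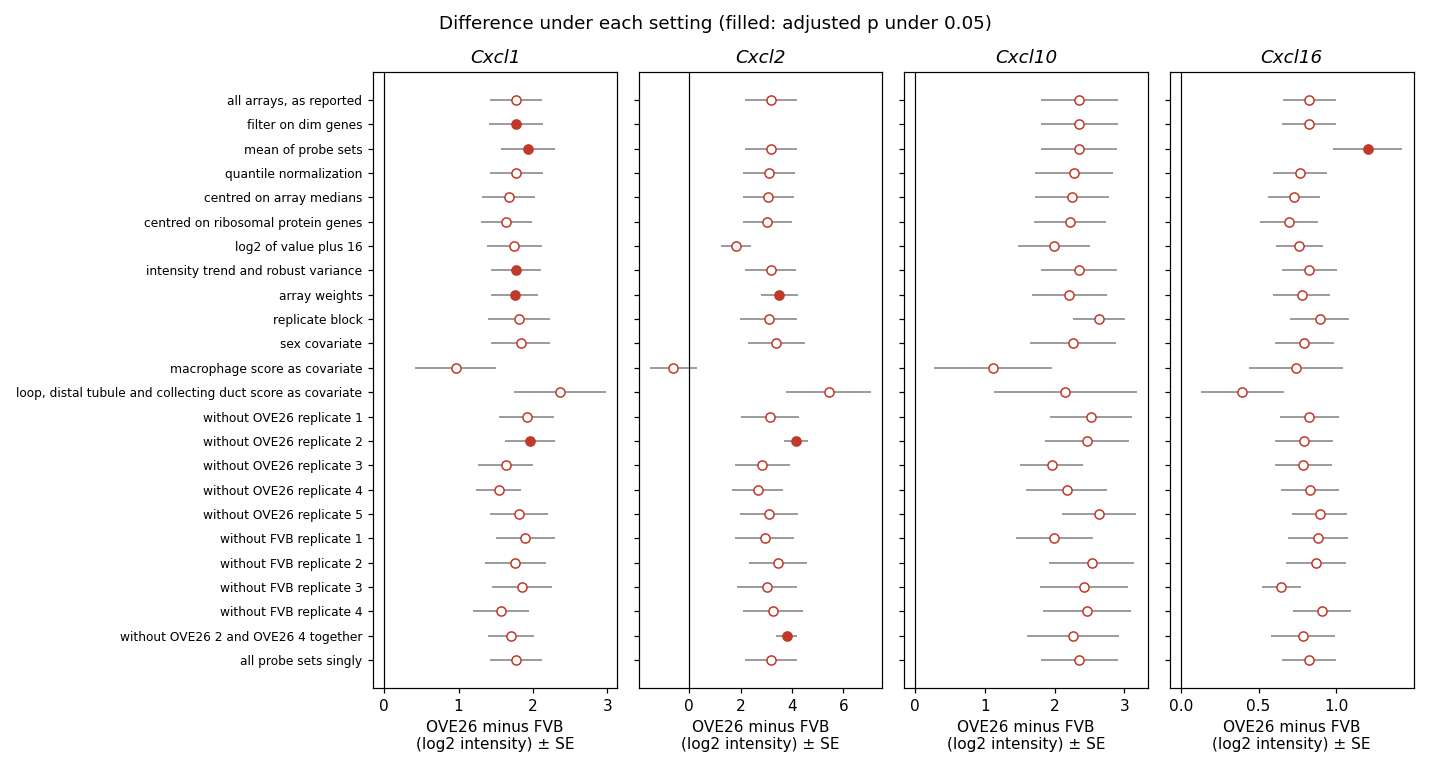
Difference in log2 intensity (OVE26 minus FVB, bars are the standard error) of Cxcl1, Cxcl2, Cxcl10 and Cxcl16 under each setting, with filled points where the limma adjusted p was under 0.05. Cxcl1, Cxcl10 and Cxcl16 were above 0 in every setting shown, and Cxcl2 in every setting except the macrophage score as a covariate.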

How the data were processed

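The deposited table holds 1 intensity per probe set and array on a linear scale, for 45101 probe sets. Per the submitters' processing notes the authors used RMA and Partek (versions not given in the sources used here), so the intensity values were already background-corrected and normalized between arrays. Total depth does not apply to arrays, and the number of arrays limits the precision. Here log2 was taken, 64 control probe sets were left out, and 34945 probe sets had 1 platform symbol, 932 several and 9160 none. The brightest probe set was kept per gene.

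Groups were compared by linear models with group as the only term (limma 3.58.1, R 4.3.3; Benjamini-Hochberg over 18193 genes, threshold 0.05), tested on simulated data. Cell type scores are means of centred log2 values, compared by 2-sided exact permutation over 126 splits. The genes and lists were chosen with earlier results of these data known. Chemokines described singly were those above threshold, those with separated groups, the 8 with the smallest p, the 12 brightest and a fixed set; others (Cxcl3, Cxcl5, Cxcl9, Cxcl11, Cxcl14, Cxcl15, Cxcl17, Ccl6, Cxcr2, Cxcr3, Cxcr6), genes named from the lists, and the promoters, which the plan reserved for genes called together, were chosen after values were seen. Alternatives covered scaling, filters, probe sets, weights, covariates, a replicate block and left-out arrays.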

Additional observations from a re-analysis of the deposited data

Results flagged for a closer look

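Of 36 group and gene combinations examined over the 18 chemokine genes described singly, 3 held an array far from the others of its group by Dixon's gap test. Chance alone marks about 1 in 20 groups by this test. Ccl4 read 5.763 on OVE26 4, against 5.288 to 5.417 on the other OVE26 arrays. Cxcl12 read 8.007 on OVE26 3, against 7.562 to 7.662 on the other OVE26 arrays. Cxcl16 read 6.678 on FVB 3, against 7.347 to 7.456 on the other FVB arrays, and its difference without FVB 3 was the lowest of its left-out values, 0.65.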

How the results depend on the processing

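Of 408 alternative values for the 18 chemokine genes described singly, 371 kept their direction and their side of the threshold, 9 came to pass it and 28 changed sign. Cxcl1, Cxcl10, Cxcl12, Cxcl16, Cxcr4, Ccl2, Ccl17 and Ccl25 never changed sign, although Cxcr4 was 0.0098 with the macrophage score. The number of chemokine genes called higher, 0 as reported by limma (9 at an unadjusted p under 0.05, 4 to 12 over the alternatives), was 1 with a filter on dim genes, 2 with the mean of probe sets, 1 with an intensity trend, 2 with array weights, 1 without OVE26 2 and OVE26 4, 3 at an adjusted p under 0.1, 1 with all probe sets tested singly, and 0 to 2 with 1 array left out. The number called lower was 0 throughout, with at most 3 at an unadjusted p under 0.05.

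Over all genes, 86 were called higher and 24 lower. The counts were 90 and 43 with log2 of the value plus 16, 128 and 38 with the filter on dim genes, 67 and 52 on array medians, 58 and 46 on ribosomal protein genes, 128 and 51 with the intensity trend, 284 and 112 with array weights, 33 and 8 with a sex covariate, 0 and 2 with the macrophage score and 0 and 0 with the distal score. At an unadjusted p under 0.05 the last 2 fits still gave 1745 and 932 higher genes. In the fit with group as the only term the counts were 14 and 1 at an adjusted p under 0.01, and 267 and 108 under 0.1. With 1 array left out they were 8 to 285 and 0 to 82, the extremes of the higher count being without FVB 3 and without FVB 2. Replicate numbers did not pair the arrays: deviations of same-numbered arrays correlated at 0.13, 0.04, -0.21 and 0.01, and no array correlated best with its own number. With the replicate block 19 genes were called higher and 0 lower, 0 of them chemokine genes.

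The median over the 50 chemokine genes, 0.07, was 0.46 with the filter on dim genes (12 genes left), -0.028 on array medians, -0.059 on ribosomal protein genes, 0.018 with log2 of the value plus 16, 0.16 with the macrophage score, -0.0051 with the distal score, and 0.03 to 0.10 with 1 array left out. Centring on ribosomal protein genes moved the median of all genes by -0.13 and centring on array medians by -0.10, so the sign of the family median rests on the scaling.

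Changes of sign were -0.61 for Cxcl2, -0.20 for Ccl3, -0.095 for Cx3cl1, 0.071 for Ccr2, 0.51 for Ccl27a, 0.13 for Cx3cr1 and 0.0031 for Ccl4 with the macrophage score, -0.024 for Cxcl13 with the distal score, 0.0084 for Ccl27a and 0.020 for Ccl4 with the sex covariate, 0.040 for Cx3cr1 and 0.023 for Ccl4 with the replicate block, 0.070 for Ccr2 with the mean of probe sets and -0.082 for Ccl5 without OVE26 2 and OVE26 4. With 1 array left out, Ccl27a ranged from -0.16 to 0.080, Ccl28 from -0.63 to 0.067, Ccl4 from -0.12 to 0.11, Ccl5 from -0.11 to 0.42, Ccr2 from -0.18 to 0.018 and Cx3cr1 from -0.057 to 0.040. The cause of these changes was not tested. Signal over background limits the 27 dim genes.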
